A study of Homo sapiens with 6 samples.

Results

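The genes described here are 58 listed genes whose proteins license replication origins, build and run the replication fork, or supply it with nucleotides. They were taken by symbol, out of 19775 genes that had at least 1 probe set naming them alone, and each was read from 1 probe set, the one with the highest mean log2 signal over all arrays. Every member passed the filter on dim probe sets and lay above the brightest Bacillus control (RNA that human cells do not make) on all 6 arrays. The samples were OVCA432 cells, an established line from high grade serous ovarian carcinoma, which in both groups had spent 24 h without serum before treatment and stayed without it. One group then received recombinant human MFAP5, a glycoprotein of extracellular microfibrils, at 200 ng/mL, and the other an equal amount of its solvent. RNA was collected after 48 h from 3 independently prepared samples per group and measured on Affymetrix U133 Plus 2.0 arrays. The labels do not say whether the samples came from separate cultures, so p-values measure the spread between these samples, which may be technical.

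Replication begins with licensing. The origin recognition complex (ORC) binds DNA, CDC6 and CDT1 load the MCM helicase onto it as an inactive ring, and geminin holds CDT1 back after S phase has begun. The CDC7 kinase, with its activator DBF4, together with cyclin-dependent kinases lets CDC45 and the GINS complex join the ring, after which primase, the replicative polymerases, the sliding clamp PCNA and the single-strand binding protein RPA copy the DNA. Many of these genes are transcribed around the start of S phase under E2F factors, which the retinoblastoma protein restrains in resting cells.

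The promoters of some members are shown for letters of the E2F type near the start of the gene. Some members that fell and some that did not pass the test carry them, and others do not. Each sequence holds the 120 bases before an annotated start, 5′ to 3′ on the gene's strand, from RefSeq (GRCh38.p14). Matches to TTTCCCGC, TTTGGCGC, TTTCGCGC or TTTGCCGC on either strand are in capitals. Only exact matches were counted, so near matches, such as attggcgc in ORC1, are not marked. Where a gene had several annotated starts, the one with the most matches in these bases was taken. DBF4, at chr7:87876373-87876492 (plus strand), and ORC1, at chr1:52404424-52404543 (minus strand), had the largest falls and hold none of these letters in the bases shown.
DBF4: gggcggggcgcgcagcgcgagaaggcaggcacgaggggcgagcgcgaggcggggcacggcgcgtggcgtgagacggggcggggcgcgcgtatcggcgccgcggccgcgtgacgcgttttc
ORC1: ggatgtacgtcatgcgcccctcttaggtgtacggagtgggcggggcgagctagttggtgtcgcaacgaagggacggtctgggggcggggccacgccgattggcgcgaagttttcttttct
MCM7, at chr7:100101398-100101517 (minus strand), GINS2, at chr16:85688955-85689074 (minus strand), and UNG, at chr12:109098052-109098171 (plus strand), were lower with MFAP5 and hold 1 match each.
MCM7: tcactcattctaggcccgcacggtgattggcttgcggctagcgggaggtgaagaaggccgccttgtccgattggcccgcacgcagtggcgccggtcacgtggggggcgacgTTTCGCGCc
GINS2: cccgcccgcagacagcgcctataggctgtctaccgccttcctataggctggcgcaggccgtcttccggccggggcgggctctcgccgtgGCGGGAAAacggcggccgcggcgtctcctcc
UNG: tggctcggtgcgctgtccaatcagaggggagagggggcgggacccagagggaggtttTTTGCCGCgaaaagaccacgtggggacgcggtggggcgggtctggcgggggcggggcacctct
PCNA, at chr20:5126623-5126742 (minus strand), CDT1, at chr16:88803669-88803788 (plus strand), TYMS, at chr18:657533-657652 (plus strand), and E2F1, at chr20:33686386-33686505 (minus strand), did not pass the test, with 1 match each in PCNA, CDT1 and TYMS and 2 in E2F1.
PCNA: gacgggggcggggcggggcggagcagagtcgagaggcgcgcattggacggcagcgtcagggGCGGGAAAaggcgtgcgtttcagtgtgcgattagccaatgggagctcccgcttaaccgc
CDT1: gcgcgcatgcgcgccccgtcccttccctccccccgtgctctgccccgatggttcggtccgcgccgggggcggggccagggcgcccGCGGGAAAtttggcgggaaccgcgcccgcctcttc
TYMS: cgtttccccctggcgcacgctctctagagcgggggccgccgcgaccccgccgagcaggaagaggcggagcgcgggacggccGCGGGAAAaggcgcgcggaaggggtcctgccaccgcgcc
E2F1: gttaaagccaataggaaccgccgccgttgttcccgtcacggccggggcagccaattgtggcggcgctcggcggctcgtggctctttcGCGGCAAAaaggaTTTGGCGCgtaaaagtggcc
In windows from 250 bases before to 50 bases after the start, available for 49 of the 58 members, 25 members (51.0%) held such a match, against 3.99% of all genes in the table. Among members that fell it was 7 of 19 (36.8%), and among members that did not pass the test 18 of 30 (60.0%). A gene was counted if any of its annotated starts held a match, so genes with more starts had more chances. A match is a description of letters and not a binding site.

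The members that passed the test were all lower with MFAP5, while most members did not pass it. All p-values are from limma on log2 signals, adjusted by Benjamini-Hochberg across 27307 probe sets, and a gene is called at an adjusted p below 0.05. Of the 58 members 22 were called lower (37.9%), 0 were called higher and 36 were not called. Among the 12216 genes tested 29.9% were called, 15.3% lower and 14.6% higher. Of the members not called, E2F1, POLD1 and RPA2 had an unadjusted p below 0.05, and of these 3 only E2F1 was on the higher side. The falls were small, from 1.14-fold in RRM1 to 1.83-fold in DBF4 with a median of 1.29-fold, and no member fell by 2-fold. The median log2 fold change was -0.17 over the 58 members and -0.01 over all genes, and 49 members lay below 0. In 29 members every MFAP5 signal was below every control signal, and in 2 members, POLA2 and POLE, every one was above, against 23.6% and 22.3% of all genes. The members varied less within groups than all genes tested, with a median SD of 0.09 against 0.13 (log2). Among probe sets at or above the 75% quantile of brightness, 23 of 56 members were called lower, against 22.6% of 7995 genes. The median log2 fold change of all genes in that setting was -0.04. In RNA from whole wells, fewer cells in S phase and less RNA per cell cannot be told apart. Differences between members were not tested.

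**Figure D1:**
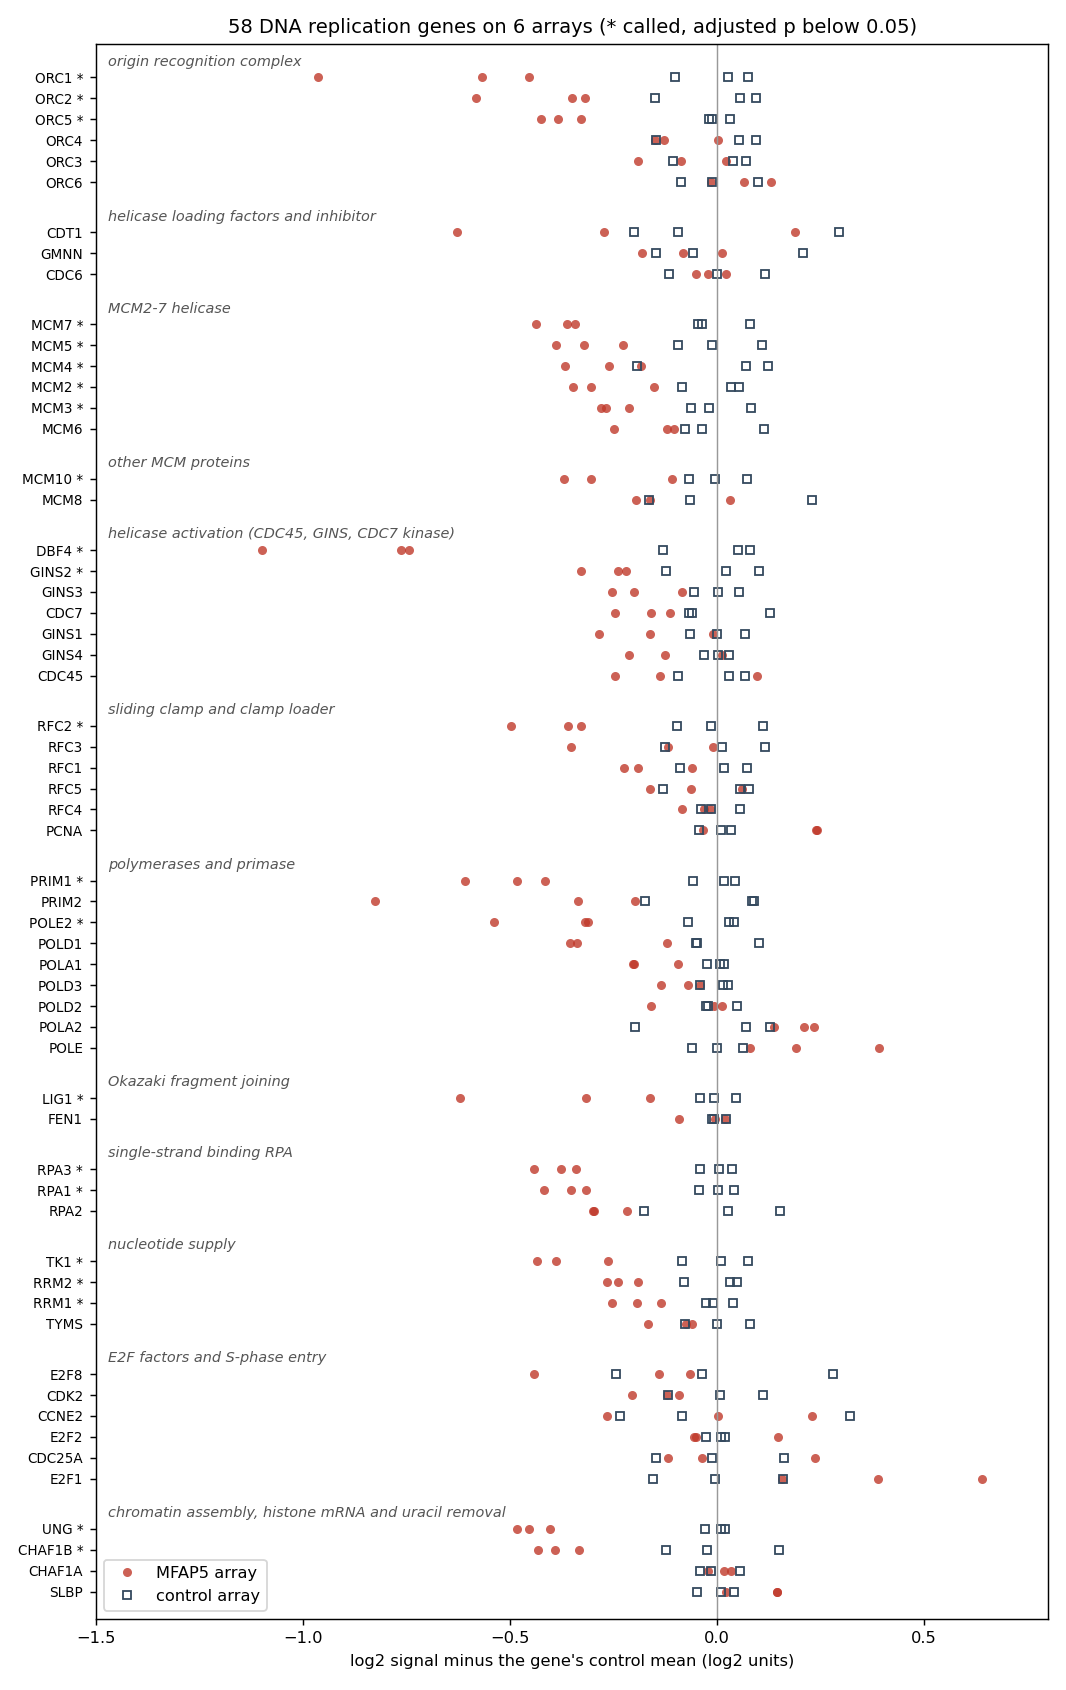
Log2 signal of each of the 58 members on the 3 MFAP5 arrays (filled circles) and the 3 control arrays (open squares), relative to the gene's control mean, with members grouped by role and an asterisk for those called. The MFAP5 circles lie left of the control squares in 29 members, by most in DBF4 and ORC1, and right of them in POLA2 and POLE.

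The shift was of like size on every MFAP5 array. The median log2 signal of the members relative to the control mean was -0.17, -0.20 and -0.19 on the MFAP5 arrays, and 0.03, -0.01 and -0.00 on the control arrays. The number of members called lower depended on the arrays and the scaling. It was 13 without MFAP5 replicate 2, without MFAP5 replicate 3, without control replicate 1 or without control replicate 2. In these settings 10.1%, 11.3%, 10.5% and 10.5% of all genes were called lower, against 15.3% with all arrays. It was 21 without MFAP5 replicate 1, where 13.7% of all genes were called lower, and 20 without control replicate 3, where 15.1% were. It was 10 with arrays centred on hybridisation controls, where 8.94% of all genes were called lower, and 12 without the intensity trend, where 9.91% were. With arrays centred on the median of all probe sets it was 34, in a setting that moved the median of all genes to -0.15 and the share called lower to 28.1%, with 9.15% higher. 8 members were called lower in all 16 alternative settings: DBF4, ORC1, PRIM1, UNG, RFC2, RPA3, MCM7 and TK1. ORC5 and RPA1 kept the call whichever array was left out. The remaining 12 lost it when a single array was left out, among them ORC2 (without control replicate 2), MCM5 (without control replicate 1), MCM3 (without MFAP5 replicate 3 or control replicate 1) and CHAF1B (without MFAP5 replicate 2, MFAP5 replicate 3 or control replicate 1). POLE2 lost it without MFAP5 replicate 2, control replicate 1 or control replicate 2, and MCM2, MCM4, MCM10, LIG1, RRM1 and RRM2 without any of the 4 arrays that gave 13 calls. GINS2 lost it without any array other than control replicate 1, RRM1 also without MFAP5 replicate 1, and LIG1 also without control replicate 3.

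At the origin, 3 of the 6 ORC subunits were lower with MFAP5. ORC1, the subunit whose level changes with the cell cycle, had signals of 343.9, 451.9 and 489.5 in MFAP5 cells, against 705.7, 682.5 and 625.1 in control cells. The highest MFAP5 array was below the lowest control array, and the log2 fold change was -0.66 ± 0.14 (SE), a fall of 1.58-fold (limma adjusted p = 0.00643). ORC5 had 915.0, 856.2 and 881.4 in MFAP5 cells and 1175.8, 1139.1 and 1135.1 in control cells, a fall of 1.30-fold (limma adjusted p = 0.00566), and its other probe set was also called lower, with a log2 fold change of -0.83. ORC2 had 1254.5, 1281.1 and 1067.8 in MFAP5 cells and 1662.1, 1706.0 and 1442.1 in control cells, 1.34-fold lower (limma adjusted p = 0.0116). Its other probe set went the other way without being called (log2 fold change 0.30, limma adjusted p = 0.105), and with the mean of both ORC2 was not called. ORC3, ORC4 and ORC6 had log2 fold changes of -0.09, -0.09 and 0.06 and were not called (limma adjusted p = 0.547, 0.463 and 0.641).

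None of the proteins that load the helicase was called. CDC6, the ATPase that recruits the helicase with CDT1, had 975.3, 947.0 and 927.1 in MFAP5 cells and 1041.9, 887.2 and 960.7 in control cells, with a log2 fold change of -0.02 (95% interval -0.21 to 0.18, limma adjusted p = 0.909). CDT1 varied most of all members within its groups, at 424.7, 543.5 and 748.7 in MFAP5 cells and 615.3, 571.2 and 805.7 in control cells. Its interval of -0.68 to 0.20 therefore leaves falls as large as that of ORC1 inside it (limma adjusted p = 0.416). GMNN, which encodes geminin, had a log2 fold change of -0.08 (95% interval -0.29 to 0.13, limma adjusted p = 0.562).

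The replicative helicase was the group with the highest share of members lower, 5 of the 6 genes MCM2 to MCM7, by small amounts and with a median log2 fold change of -0.27. MCM7 had 2285.6, 2406.6 and 2438.0 in MFAP5 cells and 3272.7, 3019.8 and 2999.4 in control cells, 1.30-fold lower (log2 fold change -0.38 ± 0.07 SE, limma adjusted p = 0.00264). MCM5 had 4291.1, 4013.9 and 3830.6 in MFAP5 cells and 5408.2, 4976.1 and 4699.2 in control cells, 1.24-fold lower (limma adjusted p = 0.0116). In both genes the groups did not overlap, and another probe set of each was called lower too. MCM2 was 1.20-fold lower, with 9183.5, 8268.6 and 8013.1 in MFAP5 cells and 10441.1, 10580.9 and 9620.5 in control cells (limma adjusted p = 0.0198). MCM3 was 1.19-fold lower, with 6022.2, 6257.5 and 5970.3 in MFAP5 cells and 7680.2, 7151.6 and 6941.2 in control cells (limma adjusted p = 0.0142). MCM4 was the only called member whose groups overlapped, at 6234.1, 5905.4 and 5488.5 in MFAP5 cells and 7712.5, 7432.9 and 6195.6 in control cells (1.21-fold lower, limma adjusted p = 0.0479), and among the 3 other MCM4 probe sets that were tested 1 was called lower (log2 fold change -0.42) and the others had -0.06 and -0.19. Averaged over all of its probe sets, with 1 at background that had failed the filter (signals of 8.89 to 28.8 in MFAP5 cells and 3.44 to 11.02 in control cells), MCM4 had a log2 fold change of 0.12 and was not called (limma adjusted p = 0.433). MCM6 was not called, although its 3 MFAP5 signals of 4605.2, 5034.6 and 5091.8 lay below its control signals of 5337.1, 5192.2 and 5925.1 (limma adjusted p = 0.14). MCM10, which helps to start the helicase, was 1.20-fold lower close to the threshold (limma adjusted p = 0.0486), and MCM8, a helicase of recombination repair, was not called (limma adjusted p = 0.611).

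The largest fall of all members was in DBF4, the activating subunit of the CDC7 kinase that fires licensed origins. DBF4 had 408.3, 514.8 and 521.7 in MFAP5 cells and 905.5, 798.5 and 924.4 in control cells. The groups lay far apart relative to their spread, at 481.6 ± 63.6 in MFAP5 cells and 876.1 ± 67.9 in control cells (mean ± SD, n = 3 each), 1.83-fold lower (log2 fold change -0.87 ± 0.12 SE, limma adjusted p = 0.000633). Its kinase partner CDC7 had 1785.3, 1628.3 and 1729.7 in MFAP5 cells and 1854.1, 1844.7 and 2110.3 in control cells, with a log2 fold change of -0.17, and was not called (limma adjusted p = 0.142). Of the GINS complex, which rides with the active helicase, GINS2 was 1.20-fold lower (limma adjusted p = 0.0344), with 1650.9, 1756.0 and 1778.2 in MFAP5 cells and 1902.8, 2104.8 and 2222.4 in control cells. The other GINS2 probe sets past the filter were dim and not called (log2 fold changes -0.39 and -0.05). GINS1, GINS3, GINS4 and CDC45 had log2 fold changes of -0.18 to -0.10 and were not called.

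At the fork, 2 of the 9 polymerase and primase genes (22.2%) and 1 of the 6 genes of the clamp and its loader (16.7%) were lower. These shares were near the 15.3% of all genes tested that were called lower. Of the Okazaki fragment genes 1 of 2 and of the RPA subunits 2 of 3 were lower. PRIM1, the catalytic subunit of primase, had 6791.4, 6479.5 and 5939.9 in MFAP5 cells and 9340.9, 9161.0 and 8698.5 in control cells. It was 1.42-fold lower (log2 fold change -0.50 ± 0.07 SE, limma adjusted p = 0.000541), with a wide gap between the groups. POLE2, an accessory subunit of the leading-strand polymerase epsilon, was 1.31-fold lower, at 561.7, 482.6 and 564.3 in MFAP5 cells and 721.4, 714.8 and 667.8 in control cells (limma adjusted p = 0.0191). The primase partner PRIM2 was dim and varied, at 80.4, 113.0 and 124.2 in MFAP5 cells and 151.7, 126.4 and 151.1 in control cells (log2 fold change -0.45, limma adjusted p = 0.163). POLE and POLA2 lay the other way without being called. POLE, the catalytic subunit of polymerase epsilon, had 823.4, 715.9 and 663.8 in MFAP5 cells and 627.2, 655.5 and 601.8 in control cells (log2 fold change 0.22, limma adjusted p = 0.155). POLA2, a subunit of the polymerase that works with primase, had 853.2, 866.4 and 810.5 in MFAP5 cells and 805.4, 773.6 and 642.9 in control cells (log2 fold change 0.19, limma adjusted p = 0.204). Both genes had all MFAP5 signals above all control signals. POLA1, POLD1, POLD2 and POLD3 had log2 fold changes of -0.27 to -0.05 and were not called.

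PCNA, the ring that tethers polymerases to DNA, was not called and had a positive log2 fold change of 0.15 (95% interval -0.03 to 0.33, limma adjusted p = 0.204). Its signals were 8845.4, 10701.3 and 10677.1 in MFAP5 cells and 9116.9, 8786.7 and 9265.4 in control cells, so that MFAP5 replicate 1 lay among the control arrays and the other 2 lay above them. Without that array PCNA was called higher (log2 fold change 0.24, limma adjusted p = 0.029). RFC2, of the loader that opens the ring, was 1.31-fold lower, with 1106.0, 984.3 and 1081.3 in MFAP5 cells and 1499.4, 1374.8 and 1299.0 in control cells (limma adjusted p = 0.00823). Its other probe set was called lower with the same log2 fold change of -0.40. RFC1, RFC3, RFC4 and RFC5 were not called, with log2 fold changes of -0.16, -0.16, -0.04 and -0.06. RPA3 had 5688.5, 5959.1 and 6108.3 in MFAP5 cells and 7934.9, 7510.0 and 7764.0 in control cells, 1.31-fold lower (limma adjusted p = 0.00119). RPA1, the subunit that holds most of the DNA contacts, had 2415.2, 2354.7 and 2254.2 in MFAP5 cells and 3096.0, 2918.3 and 3015.9 in control cells, 1.29-fold lower (limma adjusted p = 0.00277). In both subunits the groups did not overlap. RPA2 was not called (log2 fold change -0.27, limma adjusted p = 0.0617), with 1083.0, 1025.0 and 1024.1 in MFAP5 cells and 1114.6, 1282.4 and 1398.9 in control cells. Its signals varied more in control cells (SD 143.0) than in MFAP5 cells (SD 33.8), and its groups did not overlap either. LIG1, the ligase that seals Okazaki fragments, was 1.29-fold lower with 1265.2, 919.6 and 1137.2 in MFAP5 cells and 1461.7, 1376.1 and 1408.8 in control cells (limma adjusted p = 0.0362). FEN1, the nuclease that trims them, had a log2 fold change of -0.03 (95% interval -0.16 to 0.11, limma adjusted p = 0.787).

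Of the 4 genes of nucleotide supply 3 were lower. TK1, the salvage thymidine kinase, had 2441.2, 2748.0 and 2519.8 in MFAP5 cells and 3476.1, 3321.2 and 3113.5 in control cells, 1.29-fold lower (limma adjusted p = 0.00549), and its other probe set was called lower by a log2 fold change of -0.53. Both subunits of ribonucleotide reductase, which makes deoxynucleotides, were lower by less. RRM2 had 8851.5, 8562.6 and 8403.0 in MFAP5 cells and 10449.7, 10332.4 and 9570.0 in control cells, 1.17-fold lower (limma adjusted p = 0.0189), while its other probe set had a log2 fold change of -0.04 and was not called. RRM1 had 8698.2, 8333.3 and 9045.0 in MFAP5 cells and 9875.0, 9750.4 and 10203.9 in control cells, 1.14-fold lower (limma adjusted p = 0.0358). The other RRM1 probe set had a log2 fold change of -0.21 and was not called (limma adjusted p = 0.157). TYMS, thymidylate synthase, was not called (log2 fold change -0.10, limma adjusted p = 0.283).

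The E2F factors and drivers of S-phase entry were not called in any of their 6 genes. E2F1, the activator that switches on many of the other members, had the highest log2 fold change of the 58, 0.39 ± 0.15 (SE), and missed the threshold (limma adjusted p = 0.0734). Its signals were 583.6, 417.6 and 491.1 in MFAP5 cells and 418.9, 373.5 and 336.7 in control cells, with MFAP5 replicate 2 just below the highest control array. Without that array it was called higher (limma adjusted p = 0.0454). E2F2 (log2 fold change 0.01), CCNE2 (-0.01), CDC25A (0.03), CDK2 (-0.14) and E2F8 (-0.22) were not called. CCNE2, which encodes cyclin E2, showed groups that overlapped widely, at 956.0, 1151.4 and 1347.3 in MFAP5 cells and 977.2, 1084.0 and 1437.1 in control cells.

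Among the genes of chromatin assembly, histone mRNA and uracil removal, 2 of 4 were lower. UNG, the glycosylase that removes uracil from DNA, had 6814.3, 6683.0 and 7059.7 in MFAP5 cells and 9145.5, 9405.5 and 9471.5 in control cells. It had the smallest adjusted p of the members (log2 fold change -0.45 ± 0.06 SE, 1.36-fold lower, limma adjusted p = 0.000383). CHAF1B, a subunit of the histone chaperone CAF-1, was 1.31-fold lower, with 454.8, 424.9 and 437.0 in MFAP5 cells and 636.1, 526.2 and 563.4 in control cells (limma adjusted p = 0.0265). Its partner CHAF1A was not called (log2 fold change 0.01, limma adjusted p = 0.945), though another CHAF1A probe set was called higher (log2 fold change 0.35, limma adjusted p = 0.0468). SLBP, which binds the stem loop of histone mRNA, had 6560.9, 7152.0 and 7153.8 in MFAP5 cells and 6648.1, 6250.8 and 6509.8 in control cells and was not called (log2 fold change 0.10, limma adjusted p = 0.259).

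**Figure D2:**
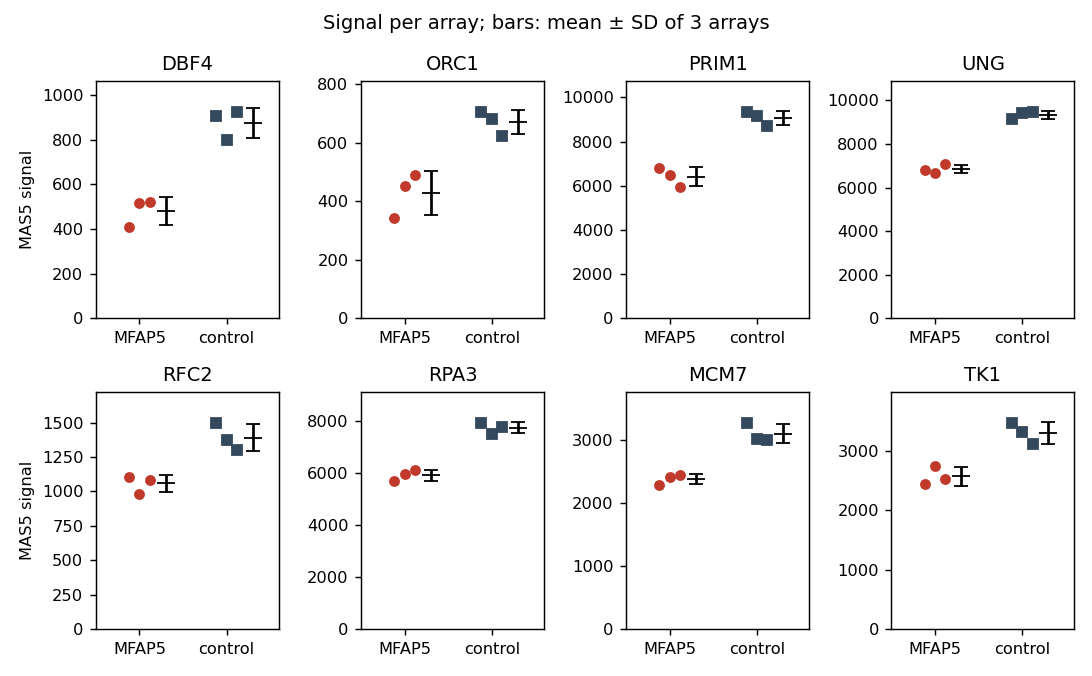
Signal per array (points) with the mean and SD (n = 3 each) of the 8 members called lower in all 16 alternative settings, MFAP5 cells left and control cells right in each panel, with signal axes that start at 0. In all 8 panels the 3 MFAP5 points lie below the 3 control points, and DBF4 has the widest relative gap.

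The lower calls were carried to varying degrees by other probe sets of the same gene. Past the filter 30 members had 39 other probe sets, of which 10 were called lower, 1 higher and 28 not at all (11.8% of all probe sets tested were called lower and 13.5% higher), with a median log2 fold change of -0.19. Of the 22 members called lower 12 had such a probe set, in 7 of them another was called lower and in 0 higher, and the remaining 10 rested on a single one. 3 members that were not called had another probe set called lower. For POLD3, a subunit of polymerase delta, this dim probe set had 72.9, 79.2 and 86.6 in MFAP5 cells and 165.3, 169.3 and 155.7 in control cells (log2 fold change -1.04, limma adjusted p = 0.00297), while the brightest gave -0.08. For RFC3 the other probe set gave -0.54 (limma adjusted p = 0.00394) and the brightest -0.16, and for CDK2 the other gave -0.52 (limma adjusted p = 0.00531) and the brightest -0.14.

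**Figure D3:**
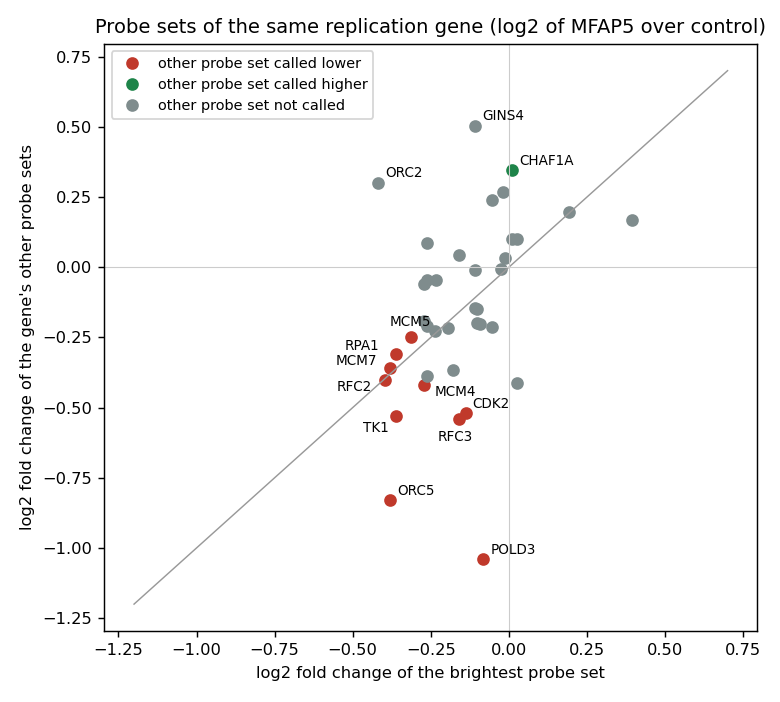
Log2 fold change (MFAP5 over control) of each of the 39 other probe sets past the filter against that of the brightest probe set of the same member, with the line of equality. Of the points 27 lie below 0 on the vertical axis, and the POLD3 probe set at -1.04 and the CHAF1A probe set at 0.35 lie well off the line.

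A further 48 genes of the same processes were read in the same way, and 46 were tested. RB1, the E2F repressor, had signals of 1.26 to 12.1 in MFAP5 cells and 1.54 to 4.47 in control cells, below the brightest Bacillus control on every array, and was not tested. Of the 46, 11 were lower (23.9%) and 3 higher (6.52%), with a median log2 fold change of -0.13. Among all genes tested 15.3% were lower and 14.6% higher. Of the 20 firing and fork factors 5 were lower (TIPIN, RNASEH2A, POLE3, TIMELESS and CHTF18) and 1 higher. TIPIN, which with TIMELESS steadies the fork, had 1518.2, 1397.2 and 1531.9 in MFAP5 cells and 2237.2, 2122.4 and 2396.7 in control cells, 1.52-fold lower (limma adjusted p = 0.000386). RNASEH2A, the catalytic subunit of the nuclease that removes ribonucleotides from DNA, was 1.37-fold lower (limma adjusted p = 0.000812), and POLE3, a small subunit of polymerase epsilon, 1.34-fold lower (limma adjusted p = 0.0011). POLD4, the smallest subunit of polymerase delta, was higher, at 1571.2, 1340.1 and 1290.7 in MFAP5 cells and 893.5, 1021.0 and 828.1 in control cells (log2 fold change 0.62 ± 0.11 SE, limma adjusted p = 0.00228).

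Of the 11 further nucleotide enzymes tested 3 were lower (27.3%: NME1, DTYMK and DGUOK) and 2 higher (18.2%). Among all genes tested these shares were 15.3% and 14.6%. RRM2B, the ribonucleotide reductase subunit induced by p53 that serves cells outside S phase, had 1273.3, 1458.0 and 1671.1 in MFAP5 cells and 929.6, 873.0 and 1115.7 in control cells (log2 fold change 0.59 ± 0.12 SE, limma adjusted p = 0.00568). It thus rose while the brightest probe sets of RRM1 and RRM2 fell by small amounts, 1.14-fold and 1.17-fold. Those lower calls were lost when single arrays were left out, and the other RRM1 and RRM2 probe sets were not called. CMPK1, a kinase of UMP and CMP, had 2230.3, 2280.8 and 2487.8 in MFAP5 cells and 1804.5, 1796.5 and 1969.3 in control cells (log2 fold change 0.33, limma adjusted p = 0.00978), and its other probe set was not called, at -0.01. Of the 15 genes of RB, E2F partners and fork chromatin tested 3 were lower (ASF1A, TFDP2 and CDCA7) and 0 higher. ASF1A, a chaperone that hands histones to CAF-1, had 949.5, 829.3 and 824.6 in MFAP5 cells and 1506.5, 1485.8 and 1284.8 in control cells, 1.64-fold lower (limma adjusted p = 0.000525), and its other probe set was called lower by -0.82. For TFDP2, a dimer partner of E2F factors, the brightest probe set was lower (log2 fold change -0.38, limma adjusted p = 0.00728) but 2 of its 3 others were called higher, by 0.68 and 0.70.

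**Figure D4:**
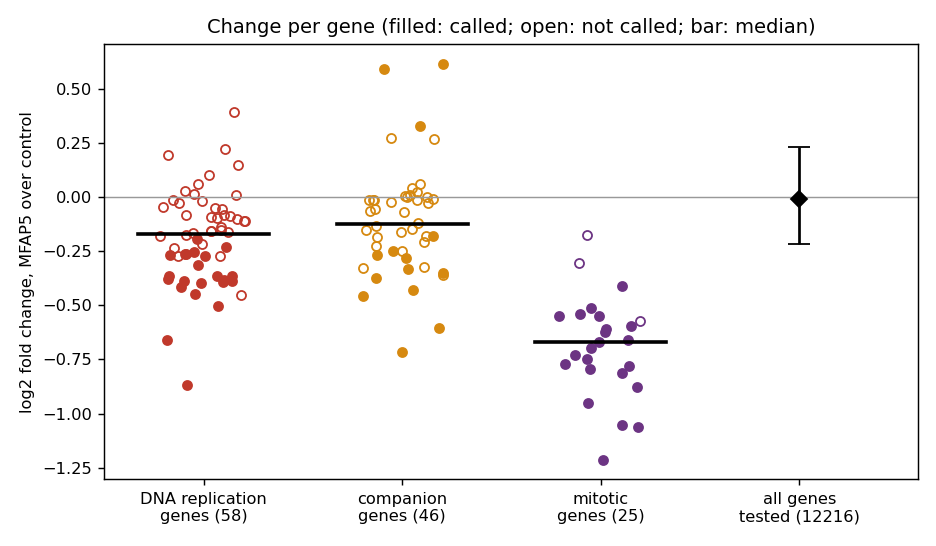
Log2 fold change (MFAP5 over control) of the 58 members, the 46 further genes tested (labelled companion genes) and 25 mitotic genes, with filled points for called genes and bars at the medians, beside the median and quartiles of all 12216 genes tested (diamond and whiskers). The medians are -0.17, -0.13 and -0.67, against -0.01 for all genes.

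Genes of mitosis, which are transcribed later in the cell cycle, were read on the same arrays for comparison. Of 25 such genes 22 were lower and 0 higher, with a median log2 fold change of -0.67, against -0.17 for the replication members. AURKB, a mitotic kinase, had 1127.5, 1041.6 and 976.9 in MFAP5 cells and 2442.9, 2413.4 and 2422.4 in control cells on its brightest probe set. This log2 fold change of -1.21 (limma adjusted p = 4.11e-06) was larger than that of any replication member. A dimmer probe set for the same kinase gave -0.33 without being called, a smaller fall than that of DBF4 (-0.87). On each MFAP5 array the median of the mitotic genes, at -0.67, -0.66 and -0.72, lay below that of the replication members. The difference between the 2 lists was not tested. In the promoter windows the E2F letters were in 3 of 20 mitotic genes (15.0%), and TTTGAA or TTCGAA, the letters of the cell cycle homology region of late cell cycle genes, were in 13 of 20 (65.0%) mitotic genes, 4 of 49 (8.16%) replication members and 19.5% of all genes. CCAAT, the letters of the NF-Y box, was in 17 of 20 mitotic genes (85.0%), 29 of 49 members (59.2%) and 39.7% of all genes.

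The labelled cell type was checked on its markers. All 8 epithelial and serous carcinoma markers lay above the Bacillus controls on every array, with summed signals of 93633 to 100951 in MFAP5 cells and 83769 to 94000 in control cells, 3 of them (EPCAM, PAX8 and MUC16) called higher and 1 (WT1) lower. Of the leukocyte and endothelial markers with a probe set 0 of 4 and 0 of 4 lay above the controls on all arrays, and of the fibroblast markers 2 of 6, with summed signals of 265 to 371 in MFAP5 cells and 262 to 305 in control cells. The 3'/5' log2 ratio of GAPDH, a measure of RNA integrity, was -0.10 ± 0.03 in MFAP5 cells and -0.13 ± 0.07 in control cells (SD, n = 3 each; exact permutation test, two-sided, p = 0.5, where 0.1 is the smallest possible). The number of probe sets above the brightest Bacillus control was 27209 on control replicate 1 and 31586 to 36073 on the other arrays. That control had a signal of 55.9 on control replicate 1, against 26.4 to 38.7 on the others. With 3 arrays per group the precision is limited. Over the 58 members the log2 fold change had a Pearson r of 0.02 with mean log2 signal, given as a description of genes on the same arrays.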

How the data were processed

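Total RNA of 6 samples was amplified, labelled with biotin and hybridised to 1 array each, per the labels' protocols. The deposited values were intensities on a linear scale, 1 for each probe set of an array, made by the authors with MAS5 per the submitters' processing notes. The MAS5 version is not given in the sources used here. The trimmed mean of each deposited column (2% left out at each end) was 500.07, so the arrays had been scaled to 1 target and a shift common to most genes would be hidden. No further scaling was applied. Groups came from the sample titles.

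Signals were taken to log2. Probe sets with a mean below the median of the non-control probe sets (a signal of 53.7) were left out, which kept 27307, and the 62 control probe sets were not tested. The comparison used lmFit and eBayes (trend on intensity) of limma 3.58.1 under R 4.3.3, with two-sided p-values adjusted by Benjamini-Hochberg. Genes were named from probe sets with exactly 1 symbol in the platform annotation, and all 58 members matched RefSeq by Entrez identifier. The fit was tested on simulated data. Members, roles, gene lists and tests were chosen with earlier results of these data known. Every member is named. Of the further lists the called genes with the largest changes and those against the majority are named. Alternatives changed the filter, scaling, offset, intensity trend, replicate block, probe set rule and arrays included.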

Additional observations from a re-analysis of the deposited data

How the results depend on the processing

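The 22 members called lower kept the sign of their log2 fold changes in every alternative, with the exception of MCM4. It was reversed to 0.12, without being called, with the mean of all probe sets of a gene. That mean takes in 1 MCM4 probe set at background, while all 4 past the filter lay below 0. RFC1, GINS4, MCM6 and CDK2 were called lower only with arrays centred on their medians. With the mean of all probe sets of a gene they reached 0.56, 0.19, 0.14 and 0.03, without being called. For each of these genes that mean takes in a probe set that had failed the filter. In RFC1 it had signals of 6.44 to 32.7 in MFAP5 cells and 2.56 to 10.1 in control cells. The RFC1 probe sets past the filter gave -0.16 and 0.04. In GINS4 a probe set past the filter also lay above 0, at 0.50. Members called lower numbered 34 with arrays centred on their medians, 10 with centring on hybridisation controls and 12 without the intensity trend, against 22, and 13 to 21 when 1 array was left out. Without MFAP5 replicate 2, MFAP5 replicate 3, control replicate 1 or control replicate 2, MCM2, MCM4, MCM10, LIG1, RRM1 and RRM2 lost the call each time. Members called higher numbered 0 to 1 when 1 array was left out. The median of the members was -0.31 with array medians, -0.23 with hybridisation controls, -0.15 with the mean of all probe sets and -0.22 with centring on the median of the probe sets tested, a setting chosen after seeing the data, and it ranged over -0.20 to -0.13 when 1 array was left out. The further genes called lower numbered 7 without the filter, 18 with array medians, 6 with hybridisation controls, 7 without the trend and 7 with the mean of all probe sets, against 11, and 5 to 10 when 1 array was left out, with 3 to 4 higher. Among all probe sets, 2422 were called higher above the 75% quantile of brightness, a setting that tested fewer of them. By gene, 17.2% of 7995 were called higher there, against 14.6% of 12216. With array medians 2302 probe sets were higher and 5975 lower, and with hybridisation controls 1920 were higher and 2011 lower, against 3679 higher and 3209 lower. Leaving out 1 array gave 2532 to 3557 higher and 2118 to 3117 lower. The causes were not tested. With the replicate number as a block, 23 members were called lower and 1 higher (E2F1, limma adjusted p = 0.0359), and 5 of the further genes higher. Deviations of same-numbered arrays correlated at 0.09, -0.01 and 0.17, so the numbers were not taken to pair the samples. Dim probe sets such as those of PRIM2 are less precise.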

Other observations

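Log2 ratios between some members whose proteins work together are given as values with no test, since the pairs were chosen after their values were seen. The log2 ratio of DBF4 to CDC7 differed by -0.70 between MFAP5 and control cells, that of PRIM1 to POLA2 by -0.70 and that of ORC1 to ORC6 by -0.72, and in each the 3 MFAP5 arrays lay below the 3 control arrays. PRIM1 and its direct partner PRIM2 had close log2 fold changes of -0.50 and -0.45, of which only that of PRIM1 was called. The ratio of RPA3 to RPA2 differed by -0.12 and that of CDT1 to GMNN by -0.15, and in both the groups overlapped.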
